A study of Mus musculus with 16 samples.

Results

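Sensory neurons of 2 levels of the spinal cord were compared, those of the dorsal root ganglia (DRG) at L3-L5 and those of the DRG at T10-L1. The members were the 8 libraries whose titles name these ganglia, 4 for each level, out of 16 libraries in the series. RNA came from cells sorted for the red fluorescent protein TdTomato from naive male C57BL/6J mice aged 8 to 12 weeks that carried a Pirt-cre driver and a Rosa26 LSL-tdTomato reporter, so both groups carried the same alleles and passed the same sort, and the labels set them apart by the ganglia. Cre was driven by Pirt, a gene of primary sensory neurons, and only cells with medium to strong TdTomato entered 2 cycles of sorting, so the libraries describe bright Pirt/TdTomato+ cells and not whole ganglia. Nothing in the labels says that the 4 libraries of a level came from separate animals, so p-values measure the spread between these libraries, which may be technical. Each value below is a count of reads per gene or counts per 1000000 reads on genes (CPM), and each log2 fold change is positive where L3-L5 was higher, followed after ± by its standard error from the fit.

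DRG neurons carry touch, temperature, itch, pain and limb position to the spinal cord. Those at L3-L5 supply mainly the leg and paw, and those at T10-L1 supply the trunk and, together with skin and muscle, the colon and other viscera. The position of a ganglion along the body is recorded by Hox genes, of which the higher paralog numbers are used further toward the tail. The neurons fall into classes with different channels and peptides, among them peptidergic nociceptors, non-peptidergic nociceptors, itch neurons, C-fibre touch neurons and large myelinated neurons. Dissociation and sorting are known to switch on immediate-early genes, heat-shock chaperones and injury genes such as Atf3 within the time that a preparation takes.

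The libraries held between 4735624 and 13333318 reads on genes, at which 3 counts correspond to 0.225 to 0.633 CPM, and a gene under that level was read as not detectable at this depth. Of the uniquely aligned reads, 35.5%, 32.0%, 32.9% and 66.6% lay outside genes in L3-L5 libraries 1 to 4 and 51.5%, 32.6%, 32.8% and 29.6% in T10-L1 libraries 1 to 4, with 95% Wilson intervals of at most 0.0266 percentage points to either side, which cover counting error only. L3-L5 library 4 and T10-L1 library 1 stood apart, so each level had 1 such library, and the leading counts are given with and without both. L3-L5 library 4 also had a read on the most genes, 18571 against 13617 to 16694 in the other libraries. No pair of libraries of a level agreed within sampling noise. By Pearson's r of log2 CPM across genes, which are not independent replicates, L3-L5 library 1 and T10-L1 library 4 were each other's nearest library (0.906), as were L3-L5 libraries 2 and 3 (0.848). Xist had 2615 to 8362 reads in each library and the 13 counted genes of chromosome Y had 0, although the animals are labelled male.

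Across 13550 genes tested, 0% had an adjusted p under 0.05 with L3-L5 higher and 0% with T10-L1 higher in edgeR's quasi-likelihood test, where the lowest adjusted p was 0.785. At an unadjusted p under 0.05, 454 genes (3.35% of those tested) were higher in L3-L5 and 369 (2.72%) were higher in T10-L1 DRG. In 294 genes (2.17%) every L3-L5 library lay above every T10-L1 library, and in 207 (1.53%) the order was the opposite. DESeq2 gave an adjusted p under 0.05 for 44 of 15620 genes (0.282%) higher in L3-L5 and 34 (0.218%) higher in T10-L1 DRG, of which 27 and 31 were among the 454 and 369. Without both libraries that stood apart in reads outside genes, 638 and 480 genes had an unadjusted p under 0.05, and 313 of the 454 and 253 of the 369 were among them. These shares are the background against which the counts of each gene class are read, together with a median log2 fold change of 0.03 and quartiles of -0.46 and 0.47 over all genes tested. A gene described below as higher at one level had an unadjusted p under 0.05 unless its values are given without that verb, and none passed adjustment in edgeR.

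Genes that mark sensory neurons were at their highest in 2 of the 4 L3-L5 libraries. The mean log2(CPM + 1) of 12 identity genes was 7.82, 9.22, 9.38 and 6.10 in L3-L5 libraries 1 to 4 and 6.80, 7.49, 7.74 and 6.85 in T10-L1 libraries 1 to 4. L3-L5 libraries 2 and 3 lay above all others, L3-L5 library 4 lay below all others, and L3-L5 library 1 lay just above the T10-L1 range. The summed level ran from 1344 to 12813 CPM in L3-L5 and from 2209 to 4239.9 CPM in T10-L1 DRG, and none of the 12 was at 0 in a library. All 12 had a positive log2 fold change with a median of 1.34, and 3 were higher in L3-L5 DRG at an unadjusted p under 0.05. That count was 0 without L3-L5 library 2 or 3 or T10-L1 library 1 or 4, 1 without T10-L1 library 2, 5 without L3-L5 library 1 and 11 without L3-L5 library 4, and the median ran from 0.92 to 1.70. Elavl4, an RNA-binding protein of neurons, had 144, 549, 587 and 70.1 CPM in L3-L5 and 72.5, 135, 128 and 63.0 CPM in T10-L1 DRG (log2 fold change 1.76 ± 0.65, unadjusted p = 0.023 in edgeR). Pirt, the gene behind the reporter, followed another order, with 308, 160.5, 173 and 47.7 CPM in L3-L5 and 100.1, 45.1, 61.2 and 205 CPM in T10-L1 DRG. Its highest values were those of L3-L5 library 1 and T10-L1 library 4, and the groups overlapped (log2 fold change 0.67, unadjusted p = 0.303 in edgeR).

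Genes of macrophages and fibroblasts were lowest in the libraries that were highest in identity genes. The 15 macrophage and MHC class II genes had a mean log2(CPM + 1) of 9.36, 3.15, 3.56 and 6.51 in L3-L5 and 6.29, 6.59, 6.85 and 10.66 in T10-L1 libraries 1 to 4. L3-L5 libraries 2 and 3 were the lowest, and L3-L5 library 1 and T10-L1 library 4, which led in Pirt, were the highest. The 13 fibroblast and collagen genes had 7.40, 3.85, 3.67 and 7.41 in L3-L5 and 6.34, 6.61, 6.36 and 8.22 in T10-L1 DRG. Summed levels ran from 267 to 16177 CPM for macrophage and 611 to 7242 CPM for fibroblast genes in L3-L5, and from 1851 to 39681 and 3933 to 13631 CPM in T10-L1 DRG. No macrophage gene was at 0 in a library, Fbln1, Fn1 and Dpt of the fibroblast genes were at 0 in 1 or 2 libraries each, and 0 of 15 and 0 of 13 reached an unadjusted p under 0.05 in either direction in edgeR, with median log2 fold changes of -1.41 and -0.80. Without T10-L1 library 4 the macrophage median turned to 0.99, and without L3-L5 library 1 it was -3.77 and 13 of the 15 were higher in T10-L1 DRG. Neutrophil genes (9 tested, median -1.08) and mural and endothelial genes (15 tested, median -0.44) had 0 of these tested members with an unadjusted p under 0.05 in edgeR. Elane, the neutrophil elastase gene, was too low to be tested in edgeR and had 27.4, 0.0992, 0.0824 and 2.96 CPM in L3-L5 and 0 reads in T10-L1 DRG, with most of its reads in L3-L5 library 1 (adjusted p = 0.0218 in DESeq2). Without L3-L5 library 4, 6 of the 15 mural and endothelial genes were higher in T10-L1 DRG and the median was -2.0, against -0.07 without L3-L5 library 3. With the share of reads outside genes as a covariate 4 were (median -1.59). In bulk libraries fewer cells of a type and less RNA per cell cannot be told apart.

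**Figure D1:**
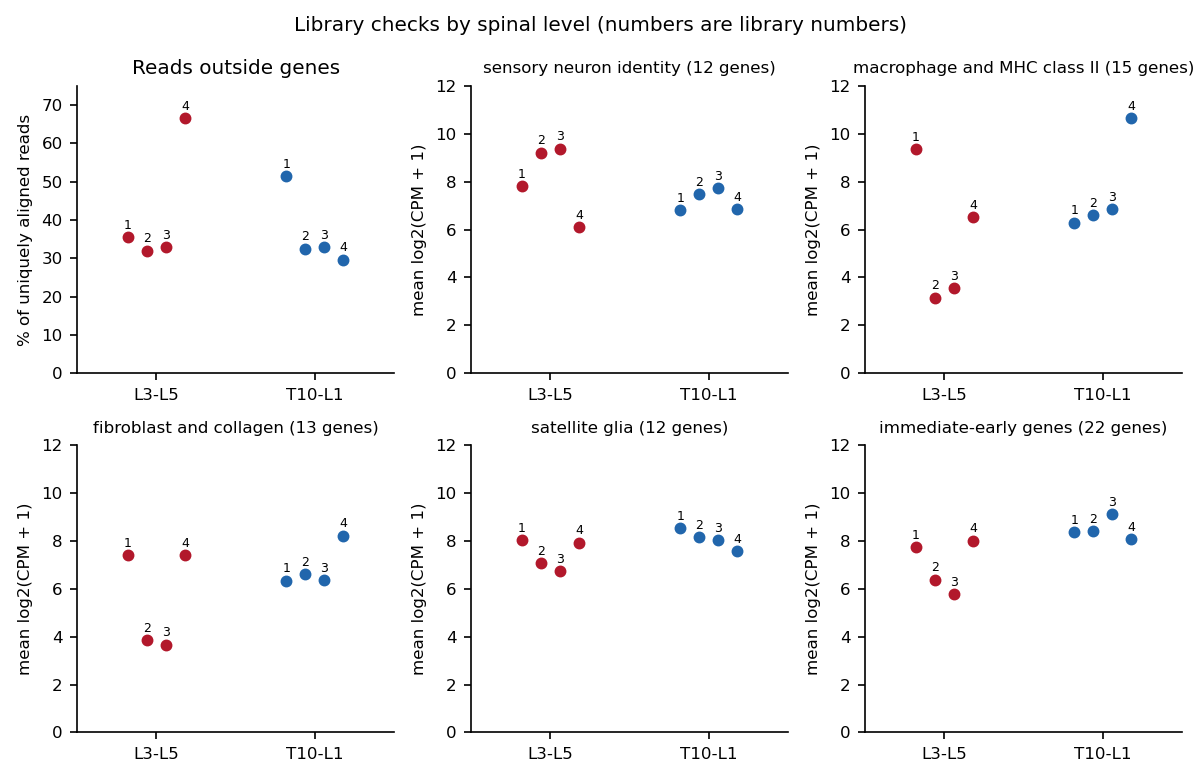
Each point is 1 library, red for L3-L5 and blue for T10-L1 DRG, with its library number beside it. The first panel gives the percentage of uniquely aligned reads outside genes and the others the mean log2(CPM + 1) of a gene list. L3-L5 libraries 2 and 3 are highest in sensory neuron identity genes and lowest in macrophage, fibroblast and immediate-early genes, and all 4 T10-L1 libraries lie above all 4 L3-L5 libraries in immediate-early genes.

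Because the mean level of the identity genes differed between libraries of the same level, each class was also fitted with the mean of the 12 identity genes as a covariate, an alternative added after seeing the data. The score holds Pirt, Snap25, Scn9a and Scn10a, which are also members of other lists or described below. In that fit 201 genes were higher in L3-L5 and 419 in T10-L1 DRG at an unadjusted p under 0.05, and 138 of the 454 and 236 of the 369 were among them, while 0 had an adjusted p under 0.05 in edgeR. The median of the macrophage list turned to 0.82 and that of the fibroblast list moved to -0.10. The plot of list medians gives the median of each list under both fits. Lists whose median moved by more than 1.5 times, and whose value in this fit is not given elsewhere, included GABA-A receptors at 0.28, P2X receptors at -0.25, HCN channels at 0.43, NF-kB inflammatory genes at -1.10, neutrophils at -0.19, axon injury genes at -0.87, Schwann cell myelin at 0.55 and the proteasome at 0.14.

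The median log2 fold change was above 0 in the small-diameter classes and below 0 in large-fibre genes. Of 8 peptidergic nociceptor genes, 8 had a positive log2 fold change (median 1.41) and 3 were higher in L3-L5 DRG, which were Trpv1, Adcyap1 and Tac1. The 3 became 1 without L3-L5 library 3 (median 0.61), without L3-L5 library 2 or without T10-L1 library 2, and 6 without both libraries with most reads outside genes (median 1.97). Trpv1, the heat and capsaicin channel, had 106, 297, 614 and 43.5 CPM in L3-L5 and 70.9, 37.8, 13.3 and 10.7 CPM in T10-L1 DRG (log2 fold change 3.02 ± 0.89, unadjusted p = 0.00734 in edgeR). Only L3-L5 library 4 fell within the T10-L1 range. Tac1, the precursor of substance P, had 343, 1272, 1566 and 119 CPM against 456, 195, 138 and 83.5 CPM. Calca, which encodes CGRP, had 908, 2620.2, 3701 and 325 CPM in L3-L5 and 1446, 513, 1224 and 228 CPM in T10-L1 DRG, with wide overlap and a log2 fold change of 1.15 (unadjusted p = 0.176 in edgeR). At equal identity score the median of the 8 was 0.03.

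Non-peptidergic nociceptor genes had a positive log2 fold change in 8 of 8 (median 1.26). In the fit on group alone, 0 reached an unadjusted p under 0.05 in edgeR or DESeq2. With the share of reads outside genes as a covariate 6 of the 8 were higher in L3-L5 DRG (median 1.63), and without L3-L5 library 4, 2 were. Mrgprd, the receptor that marks this class, had 285, 808, 439 and 25.3 CPM in L3-L5 and 23.7, 195, 309 and 154 CPM in T10-L1 DRG. T10-L1 library 1 had the lowest mean of the class, 3.72 against 6.42 to 6.71 in the other T10-L1 libraries. The median was -0.62 at equal identity score. Ret, the receptor tyrosine kinase of the GDNF family, had 253, 738, 510.2 and 44.6 CPM against 22.3, 153, 194 and 138 CPM. Among itch neuron genes 5 of 8 had a positive value and 0 reached an unadjusted p under 0.05 in edgeR or DESeq2 (median 0.77, and -0.31 at equal identity score).

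C-fibre touch neuron genes had the highest median of the neuron classes, with 3 of 4 tested genes higher in L3-L5 DRG and a median of 2.11 (0.85 at equal identity score, where 0 of 4 reached an unadjusted p under 0.05). That count of 3 was 1 without L3-L5 library 2 or 3 or T10-L1 library 1 or 4, and 2 without T10-L1 library 3. With all 16 libraries fitted together it was 1. Th, tyrosine hydroxylase, had 105, 212, 163 and 1.27 CPM in L3-L5 libraries 1 to 4 and 6.11, 25.3, 0.247 and 8.48 CPM in T10-L1 libraries 1 to 4. Library 4 separated from the other L3-L5 libraries by its near absence of Th and overlapped with T10-L1 (log2 fold change 3.60 ± 1.35, unadjusted p = 0.0245 in edgeR). Fam19a4, a secreted protein of these neurons, had 39.8, 134, 108 and 7.39 CPM against 0.917, 32.3, 8.14 and 11.4 CPM. Zfp521, a transcription factor, had 33.0, 46.5, 160.3 and 31.7 CPM in L3-L5 and 9.32, 29.5, 21.5 and 20.2 CPM in T10-L1 DRG without overlap.

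Large-fibre genes went the other way, with 3 of 14 higher in T10-L1 DRG, 0 higher in L3-L5 DRG and a median of -0.69 (-0.61 at equal identity score). Fam19a1 had 3.21, 3.97, 3.87 and 2.11 CPM in L3-L5 and 30.9, 24.2, 16.7 and 3.98 CPM in T10-L1 DRG (log2 fold change -2.52 ± 0.72, unadjusted p = 0.00623 in edgeR, adjusted p = 0.0267 in DESeq2). T10-L1 libraries 1 to 3 lay well above L3-L5 and library 4 just above it. Ntrk3, the receptor for neurotrophin-3 of proprioceptors and touch neurons, had 40.2, 51.6, 18.0 and 39.5 CPM against 91.9, 115, 76.8 and 56.9 CPM, without overlap (log2 fold change -1.22, unadjusted p = 0.00768 in edgeR). Ntrk2, the receptor for BDNF, had a log2 fold change of -0.65 (unadjusted p = 0.0495 in edgeR). The 3 neurofilament genes of the list had the opposite sign and did not reach the threshold. Nefh, the heavy subunit, had 32.7, 32.9, 141 and 98.0 CPM in L3-L5 and 43.9, 28.4, 77.4 and 18.4 CPM in T10-L1 DRG. Pvalb, a calcium buffer of proprioceptors, ranged from 1.19 to 17.8 CPM in L3-L5 and from 0.476 to 43.9 CPM in T10-L1 DRG. Without T10-L1 library 1 the median of the list was -0.15.

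The Hox genes of paralog groups 10 to 13, which are used at lumbar and more caudal levels, did not overlap between the ganglia in their mean level. Of 12 counted genes, 2 passed the filter on low counts, Hoxa10 and Hoxc10, so the others are given as values. Hoxa10 (chr6:52181196-52190853 of mm9) had 17.8, 33.0, 47.0 and 11 CPM in L3-L5 and 6.11, 0.190, 5.75 and 2.48 CPM in T10-L1 DRG, without overlap (log2 fold change 2.88 ± 0.95, unadjusted p = 0.0131 in edgeR). Hoxc10 had 4.47, 10.1, 4.78 and 1.48 CPM in L3-L5 and 3.06, 0, 0 and 2.55 CPM in T10-L1 DRG, where 2 libraries were at 0 and 2 lay within the L3-L5 range (unadjusted p = 0.272 in edgeR). Hoxd10 had 0.195, 3.67, 3.54 and 8.45 CPM against 0, 0, 0 and 0.675 CPM. L3-L5 library 1 was near 0 for Hoxd10 and the other 3 lay above all T10-L1 libraries. The mean log2(CPM + 1) of the 12 did not overlap, with 0.71, 0.95, 0.95 and 1.44 in L3-L5 and 0.59, 0.02, 0.23 and 0.37 in T10-L1 libraries 1 to 4. The highest mean of either level was that of its library with the most reads outside genes.

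Hox genes of lower paralog number were at similar medians at both levels, 0.15 for paralogs 1 to 5 and 0.11 for paralogs 6 to 9, with 11 genes tested in each. Hoxa7 had 39.3, 27.9, 40.0 and 24.1 CPM in L3-L5 and 41.3, 28.2, 28.6 and 21.1 CPM in T10-L1 DRG (log2 fold change 0.11 ± 0.36, unadjusted p = 0.764 in edgeR). Hoxc9, the neighbour of Hoxc10, had a log2 fold change of 0.03 and Hoxb7 of -0.34. In paralogs 1 to 5 the gene higher in L3-L5 DRG was Hoxd3, with 1.65, 6.75, 2.31 and 9.29 CPM against 0.153, 0.571, 0.164 and 1.20 CPM, of whose exon bases 35.8% are shared with Hoxd4 and with 1700109F18Rik on the other strand. Both medians changed sign in 4 of 16 other settings.

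Ion channel and receptor lists had a positive median in 12 of 13, with P2X receptors as the exception. At equal identity score the median stayed positive in 5 of the 13. The mean levels of TRP, voltage-gated calcium and potassium channels did not overlap between the levels. Those of TRP channels were 2.86 to 3.35 in L3-L5 and 2.19 to 2.77 in T10-L1 DRG, those of calcium channels 2.09 to 2.85 and 1.42 to 2.07, and those of potassium channels 2.51 to 2.76 and 2.1 to 2.38 in log2(CPM + 1). Of 18 TRP channel genes only Trpv1 was higher in L3-L5 DRG (median 0.60, and 0.21 at equal identity score), and Trpm4, a calcium-activated cation channel, had 19.6, 49.3, 48.4 and 14.1 CPM against 2.29, 18.6, 13.5 and 14.9 CPM. Without L3-L5 library 4, 5 of the 18 were higher in L3-L5 DRG, and without T10-L1 library 1, 2 were.

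Voltage-gated calcium channels had 5 of 18 genes (27.8%) higher in L3-L5 DRG, beside 3.35% of all genes, and 0 higher in T10-L1 DRG. The median was 1.21, and 0.37 at equal identity score. Without L3-L5 library 2 or 3 or T10-L1 library 4 the count of 5 was 3, and without L3-L5 library 1 or 4 it was 6. With all 16 libraries fitted together it was 0. Cacna1i, a T-type channel, had 6.91, 12.1, 3.79 and 4.22 CPM in L3-L5 and 0.917, 0.381, 0.0822 and 0 CPM in T10-L1 DRG, without overlap (log2 fold change 4.30 ± 1.34, unadjusted p = 0.0099 in edgeR, adjusted p = 0.017 in DESeq2). Cacna1b, the N-type channel of presynaptic terminals, had 20.8, 102, 126 and 13.1 CPM against 12.5, 13.9, 2.88 and 11.5 CPM. L3-L5 libraries 2 and 3 carried most of that difference, and library 4 lay within the T10-L1 range. Cacna2d1, the subunit bound by gabapentin, had a log2 fold change of 1.97 (unadjusted p = 0.0418 in edgeR).

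Potassium channels had 4 of 51 genes (7.84%) higher in L3-L5 DRG and 3 of 51 (5.88%) without overlap, beside 3.35% and 2.17% of all genes. Their median was 0.23, and -0.17 at equal identity score. The 4 became 1 without L3-L5 library 3, 2 without L3-L5 library 2 or T10-L1 library 1, and 7 without L3-L5 library 4. With all 16 libraries fitted together the count was 1. Kcnf1, a silent subunit that modifies Kv2 channels, had 2.33, 19.0, 28.3 and 1.06 CPM in L3-L5 and 0.306, 0.0952, 0 and 0 CPM in T10-L1 DRG, with at most 2 reads in a T10-L1 library (unadjusted p = 0.00211 in edgeR, adjusted p = 0.000943 in DESeq2). Kcnk3, the acid-sensitive leak channel TASK-1, had 13.3, 9.83, 16.1 and 16.5 CPM against 2.14, 0.381, 0 and 4.43 CPM without overlap, and its L3-L5 values were of similar size in all 4 libraries (unadjusted p = 0.0453 in edgeR). Kcnh6 and Kcnc2, a Kv3 channel of fast-firing neurons, were the other 2, with log2 fold changes of 2.73 and 2.23 and overlapping libraries.

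Of 13 voltage-gated sodium channel genes tested, 2 (15.4%) were higher in L3-L5 and 1 (7.69%) in T10-L1 DRG, beside 3.35% and 2.72% of all genes. With 1 library left out these counts ran from 1 to 4 and from 0 to 1. Scn2b, an auxiliary beta subunit, had the lowest p of the list and was higher in L3-L5 DRG. The nociceptor channels Scn9a, Scn10a and Scn11a had log2 fold changes of 1.37, 1.40 and 1.3, none with an unadjusted p under 0.05. Scn9a and Scn10a are themselves among the identity genes, so a likeness of their levels to that score is partly built in. Scn10a had 262, 1266, 1207 and 41.0 CPM in L3-L5 and 81.6, 253, 516 and 192 CPM in T10-L1 DRG. Scn7a, a sodium-sensing channel that glia also express, was higher in T10-L1 DRG, with 474, 185, 189 and 547 CPM against 619.7, 978, 947 and 322 CPM. The median of the list was 1.37, and -0.24 at equal identity score, a score that holds Scn9a and Scn10a. Of 11 acid-sensing and mechanosensory channels 3 were higher in L3-L5 DRG (median 0.57, and -0.30 at equal identity score), 0 without L3-L5 library 3 or T10-L1 library 1, and 1 without L3-L5 library 2 or T10-L1 library 3 or 4. They were Accn1, an acid-sensing channel (log2 fold change 2.98), Fam38b, the earlier name of the touch channel Piezo2 (1.36), and Tmem63b (0.66). Fam38b had 96.4, 298, 350.3 and 106 CPM in L3-L5 and 58.4, 133, 75 and 65.3 CPM in T10-L1 DRG, where T10-L1 library 2 alone overlapped.

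The opioid system had the highest median of the lists with more than 2 tested genes, 2.75 over 6 genes, all of them above 0, and 2.04 at equal identity score. Its mean log2(CPM + 1) was 1.72, 3.49, 3.08 and 2.44 in L3-L5 and 1.13, 1.52, 0.94 and 0.84 in T10-L1 libraries 1 to 4, without overlap. Oprl1 encodes the nociceptin receptor and had 4.67, 53.9, 61.9 and 12.2 CPM in L3-L5 and 0.611, 2.47, 0.0822 and 0 CPM in T10-L1 DRG. Every L3-L5 library lay above every T10-L1 library, although library 1 held the lowest level of the 4 (log2 fold change 5.43 ± 1.44, unadjusted p = 0.00401 in edgeR, adjusted p = 0.00487 in DESeq2). Penk, the enkephalin precursor, had 12.7, 40.1, 27.9 and 16 CPM against 0, 3.90, 0.0822 and 7.88 CPM, also without overlap and with an unadjusted p of 0.0528 in edgeR.

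The 3 classical opioid receptors overlapped between the levels. Oprd1, the delta receptor, had 1.26, 17.1, 14.8 and 1.06 CPM in L3-L5 and 1.68, 0.0952, 0 and 0 CPM in T10-L1 DRG, where the difference was that of L3-L5 libraries 2 and 3 (unadjusted p = 0.0404 in edgeR). Oprk1, the kappa receptor, had 0.389, 16.8, 4.86 and 3.38 CPM against 0.306, 2.00, 0 and 1.95 CPM. Oprm1, the mu receptor and the target of morphine, had 10.2, 26.8, 36.1 and 8.45 CPM in L3-L5 and 16.8, 4.47, 13.4 and 1.65 CPM in T10-L1 DRG, which overlapped (log2 fold change 1.16, unadjusted p = 0.186 in edgeR).

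Among GABA-A receptor subunits, 2 of 8 tested genes (25%) did not overlap and were higher in L3-L5 DRG, beside 2.17% of all genes. At an unadjusted p under 0.05 in edgeR, 3 (37.5%) were higher in L3-L5 and 1 (12.5%) in T10-L1 DRG, beside 3.35% and 2.72% of all genes. With 1 library left out these counts ran from 2 to 4 and from 0 to 1. Gabrb1, a beta subunit, had 2.82, 8.93, 8.16 and 5.49 CPM in L3-L5 and 0, 0.190, 0 and 0 CPM in T10-L1 DRG, where 3 libraries had 0 reads and library 2 had 2 (unadjusted p = 0.00112 in edgeR, adjusted p = 0.000536 in DESeq2). Gabrb2, another beta subunit, had 2.24, 13.2, 5.03 and 26.4 CPM against 0.764, 0.190, 0 and 0.0750 CPM, without overlap (log2 fold change 5.51, unadjusted p = 0.00358 in edgeR). Gabre, the epsilon subunit, was higher in T10-L1 DRG, with 3.99, 1.89, 1.07 and 5.07 CPM in L3-L5 and 7.34, 12.7, 19.5 and 4.20 CPM in T10-L1 DRG. The alpha subunits Gabra2 and Gabra3 overlapped, with log2 fold changes of 1.43 and 0.01. Leaving out L3-L5 library 3 brought the median of the list from 1.21 to 0.47.

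P2rx2, an ATP-gated channel, had 6.32, 10.5, 10.9 and 2.75 CPM in L3-L5 and 0.611, 0.0952, 0.493 and 0.3 CPM in T10-L1 DRG without overlap (log2 fold change 4.29 ± 1.03, unadjusted p = 0.00209 in edgeR, adjusted p = 0.000704 in DESeq2), and the 5 tested P2X genes had a median of -0.51. Among 18 glutamate receptor genes 4 were higher in L3-L5 DRG (median 0.59, and -0.15 at equal identity score), among them Grin1, the obligate NMDA receptor subunit (log2 fold change 2.05, with 13.5% of its exon bases shared with a gene on the other strand), and Gria1, an AMPA receptor subunit (2.19). The 4 became 0 without L3-L5 library 2 or 3 or T10-L1 library 2, 1 without T10-L1 library 1 or 4, and 2 without T10-L1 library 3. HCN, nicotinic and serotonin receptor lists had 4, 7 and 8 genes tested. In edgeR's fit on group alone 0 of each had an unadjusted p under 0.05, and 0, 2 and 0 did in DESeq2. With the share of reads outside genes as a covariate, 3 nicotinic genes and 1 serotonin gene were higher in L3-L5 and 1 nicotinic gene in T10-L1 DRG. For HCN, 1 gene was higher in L3-L5 DRG without L3-L5 library 1 or 2. Of 10 neuropeptide genes 2 were higher in L3-L5 DRG, the peptidergic genes Adcyap1 and Tac1 already described. The 2 became 0 without L3-L5 library 2 or 3 or T10-L1 library 2. Gal, which encodes galanin, had 23.8, 54.1, 91.5 and 1.69 CPM against 25.1, 16.1, 18.7 and 4.05 CPM.

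**Figure D2:**
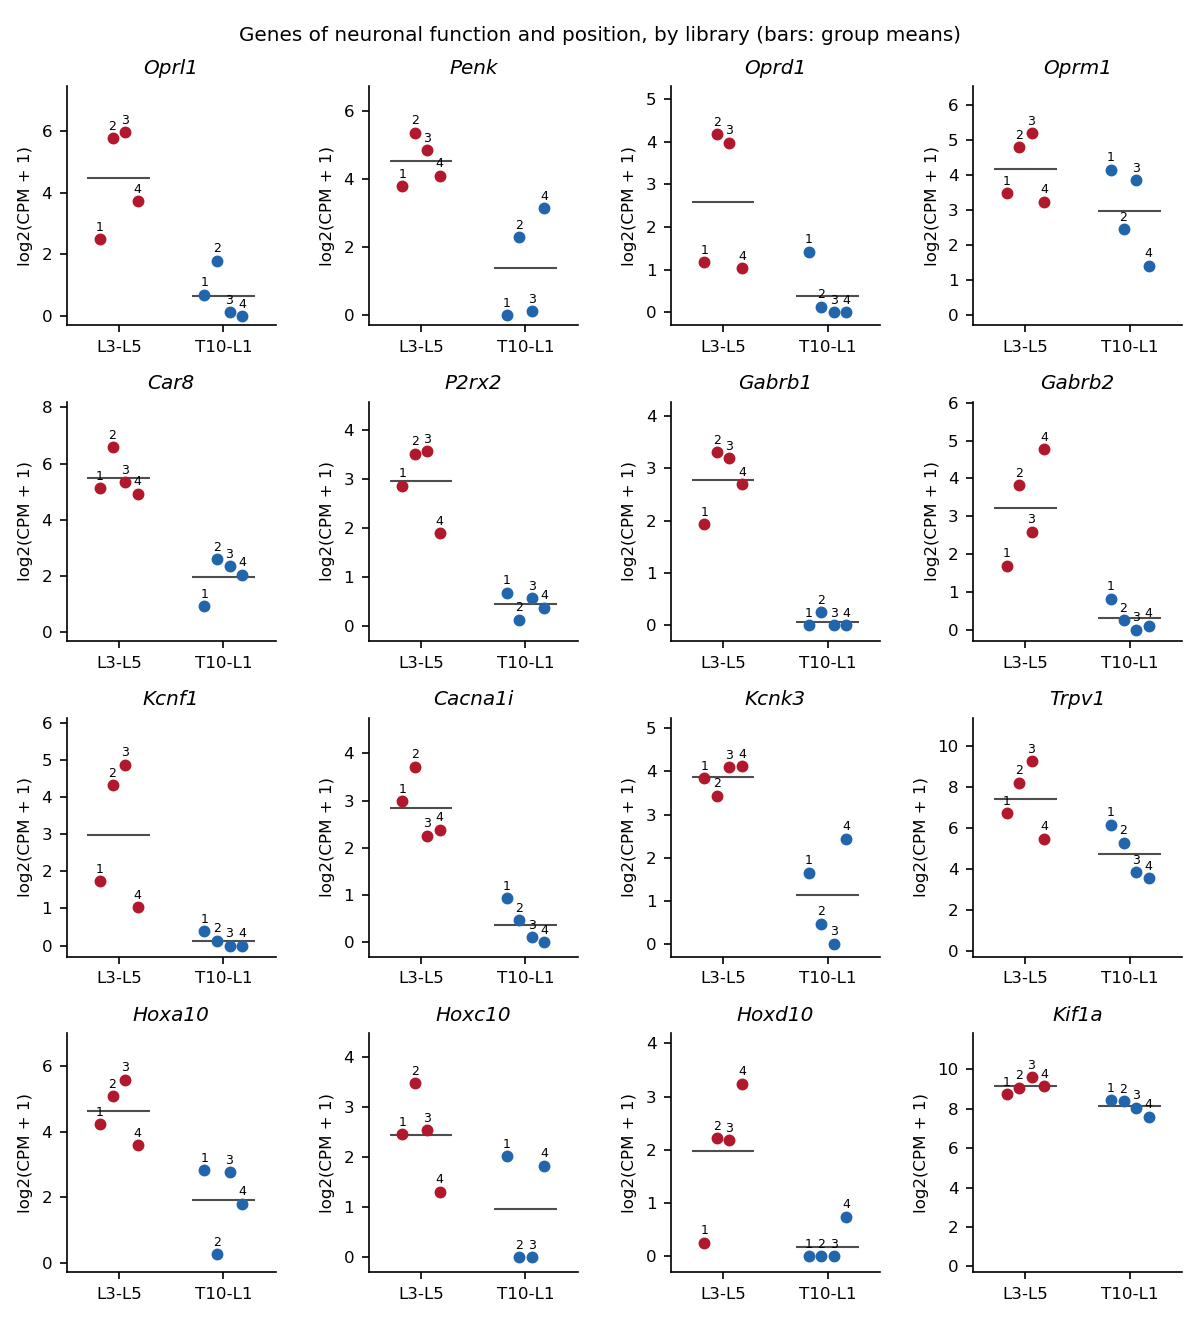
Each panel is a gene, each point 1 library with its number, and each bar the mean of 4 libraries, all on a log2(CPM + 1) axis. Oprl1, Penk, Car8, P2rx2, Gabrb1, Gabrb2, Kcnf1, Cacna1i, Kcnk3, Hoxa10 and Kif1a do not overlap between the levels, while in Trpv1, Oprd1, Oprm1, Hoxc10 and Hoxd10 they do.

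Motors of axonal transport had fold changes of one sign and similar size. All 18 kinesin, dynein and dynactin genes had a positive log2 fold change (median 0.87, quartiles 0.79 and 0.98), 6 of 18 (33.3%) were higher in L3-L5 DRG and 5 (27.8%) did not overlap, beside 3.35% and 2.17% of all genes. The 6 became 2 without L3-L5 library 2 or 3, 3 without T10-L1 library 4, 14 without L3-L5 library 1 and 15 without L3-L5 library 4. Kif1a, the motor of synaptic vesicle precursors, had 419.7, 531, 774 and 558 CPM in L3-L5 and 339.8, 334, 264 and 191 CPM in T10-L1 DRG (log2 fold change 1.00 ± 0.30, unadjusted p = 0.00814 in edgeR). Unlike the identity genes, Kif1a was above the T10-L1 range in L3-L5 library 4 as well. Kif5b, a conventional kinesin, behaved alike, with 389, 622, 711 and 679 CPM against 294, 381, 374 and 248 CPM. At equal identity score the median was 0.31 and 2 of 18 were higher in L3-L5 DRG. The count moved between 2 without L3-L5 library 2 or 3 and 15 without L3-L5 library 4.

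Synaptic vesicle and SNARE genes had a median of 1.07 over 19 genes. Of these, 0 reached an unadjusted p under 0.05 in edgeR and 2 did in DESeq2. At equal identity score, which Snap25 enters, the median was -0.12. Without L3-L5 library 4, 11 of the 19 were higher in L3-L5 DRG (median 1.31), 4 were without L3-L5 library 1 and 7 without both libraries with most reads outside genes. Snap25 had 418, 1006, 1524 and 284 CPM in L3-L5 and 468, 423, 340.2 and 192 CPM in T10-L1 DRG. Respiratory chain genes differed little and in one direction, with 66 of 74 (89.2%) above 0 and a median of 0.32. In 11 (14.9%) all L3-L5 libraries lay above T10-L1, beside 2.17% of all genes. At an unadjusted p under 0.05 in edgeR, 3 (4.05%) were higher in L3-L5 DRG, close to the 3.35% of all genes. Ndufa5, a subunit of complex I, had 103, 116, 88.7 and 118 CPM against 70.8, 64.6, 56.2 and 51.5 CPM (log2 fold change 0.77, unadjusted p = 0.00824 in edgeR). The median of this list was 0.22 at equal identity score and 0.22 to 0.39 with 1 library left out. Proteasome genes had 32 of 37 above 0 (median 0.35), and cytosolic ribosomal protein genes had a median of -0.07 over 69 genes, with 0 of either list at an unadjusted p under 0.05 in edgeR, and 2 and 0 of these genes in DESeq2. Without L3-L5 library 4, 7 proteasome genes were higher in L3-L5 DRG.

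**Figure D3:**
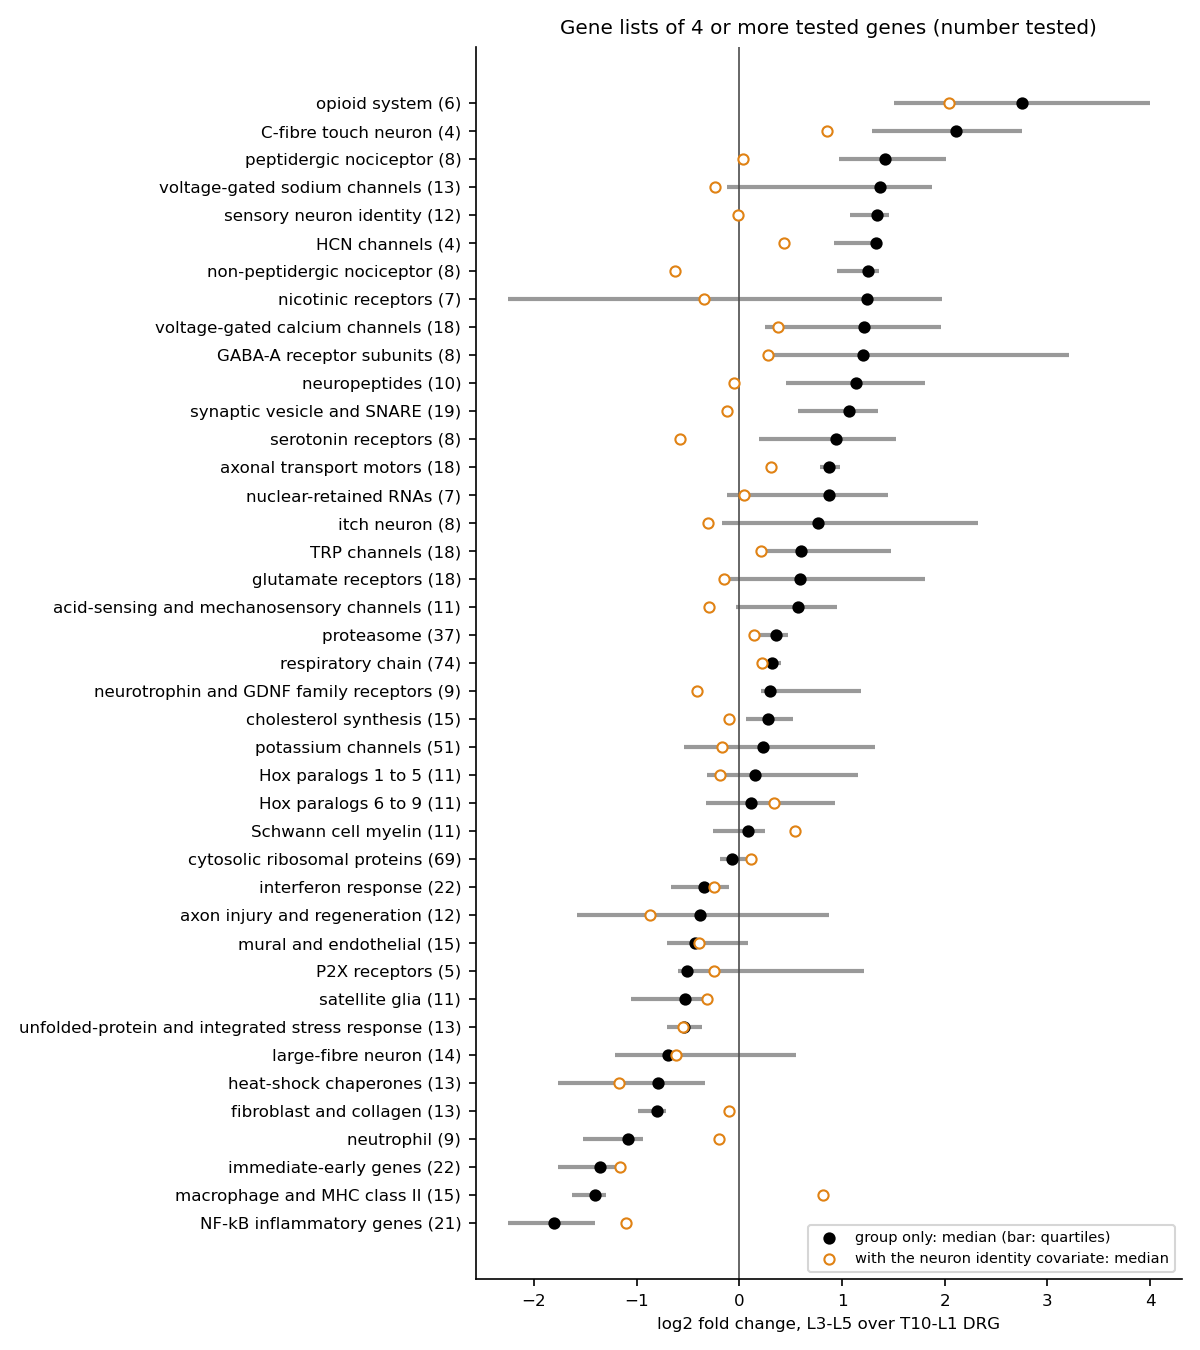
Median log2 fold change of each gene list with 4 or more tested genes, positive where L3-L5 DRG was higher, with the number of tested genes in brackets. Black points and grey bars give the median and quartiles of the fit on group alone, and open orange points the median with the mean of the 12 identity genes as a covariate. Neuron classes and most channel lists move toward 0 or below it under the covariate, macrophage genes cross it, and the opioid, immediate-early, heat-shock and large-fibre lists keep their side.

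Immediate-early genes were higher in T10-L1 DRG. They are the transcription factors and regulators that neurons and other cells induce within minutes of a stimulus. Of 22 genes, 14 (63.6%) were higher in T10-L1 and 0 were higher in L3-L5 DRG, beside 2.72% of all genes, and all 22 had a negative log2 fold change (median -1.36). In 4 (18.2%) the libraries did not overlap, beside 1.53% of all genes. The mean log2(CPM + 1) was 7.74, 6.39, 5.77 and 8.01 in L3-L5 and 8.37, 8.40, 9.11 and 8.09 in T10-L1 libraries 1 to 4. L3-L5 libraries 1 and 4 were close to T10-L1 library 4, and L3-L5 libraries 2 and 3, the lowest in macrophage and fibroblast genes, were far below. The part of macrophage, fibroblast or glial RNA in this difference was not tested. At equal identity score the median was -1.16 and 13 genes were higher in T10-L1 DRG, and without both libraries that stood apart in reads outside genes 13 were. The count fell to 5 without T10-L1 library 3, to 7 without L3-L5 library 2 and to 9 without L3-L5 library 3, and reached 18 without L3-L5 library 4, always with 0 in the other direction.

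Klf6, a zinc finger factor induced by injury, had 494, 234, 196 and 489 CPM in L3-L5 and 730.5, 1403, 2110.2 and 770.3 CPM in T10-L1 DRG, without overlap (log2 fold change -1.88 ± 0.46, unadjusted p = 0.00237 in edgeR, adjusted p = 0.0289 in DESeq2). Fos, the classical member, was abundant at both levels, with 4368, 2058, 1167 and 6395 CPM in L3-L5 and 7407, 11524, 13763 and 5126 CPM in T10-L1 DRG. L3-L5 library 4 exceeded T10-L1 library 4, and the log2 fold change was -1.49 (± 0.57, unadjusted p = 0.0262 in edgeR). Fosl2, a Fos partner of Jun, had 39.6, 6.85, 3.71 and 41.0 CPM against 105, 66.3, 148 and 61.6 CPM, and Zfp36, which destabilises cytokine mRNA, had 942, 180.2, 85.3 and 781 CPM against 1167, 1438, 1715 and 1623 CPM, both without overlap. Arc, the member most tied to neurons, had 41.5, 49.1, 30.0 and 28.5 CPM in L3-L5 and 86.4, 63.9, 192 and 33.3 CPM in T10-L1 DRG (unadjusted p = 0.0224 in edgeR). Cyr61, Jun, Jund, Fosb, Junb, Btg2, Ier3, Nr4a3 and Egr1 were also higher in T10-L1 DRG, with log2 fold changes from -2.08 for Cyr61 to -1.18 for Jund.

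Inducible heat-shock chaperones were highest in T10-L1 libraries 2 and 3. Hspa1a, an inducible HSP70, had 751, 655, 294 and 814 CPM in L3-L5 and 1062, 5097, 6382 and 645 CPM in T10-L1 DRG (log2 fold change -2.43 ± 0.72, unadjusted p = 0.00769 in edgeR). Hspa1b, a near-identical copy, and the HSP40 gene Dnajb1 were the other 2 of 13 higher in T10-L1 DRG (median -0.80). Reads that align to both Hspa1a and Hspa1b are left out of the counts. Hsph1, a co-chaperone of HSP70, had 138, 343, 259 and 98.8 CPM in L3-L5 and 120.3, 909, 1835 and 113 CPM in T10-L1 DRG, so that T10-L1 libraries 1 and 4 lay at the L3-L5 level and libraries 2 and 3 above it. Hspb8, a small chaperone, had the opposite sign with 234, 572, 607 and 76.4 CPM against 84.5, 200.3, 194 and 186 CPM. At equal identity score 9 of 13 were higher in T10-L1 DRG (median -1.17), and 1 was without T10-L1 library 2 or without library 3, where the median was -0.83 or -0.33.

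Axon injury genes were mixed. Of 12 tested, 4 (33.3%) were higher in T10-L1 and 1 (8.33%) in L3-L5 DRG, beside 2.72% and 3.35% of all genes. The 4 became 2 without T10-L1 library 3 and 5 without L3-L5 library 4. The 1 became 0 without L3-L5 library 2 or 3 and 2 without L3-L5 library 4. It was also 0 with all 16 libraries fitted together and with the replicate block. Atf3 (chr1:192994175-193007219 of mm9), the factor that injured sensory neurons switch on, had 363, 288, 155 and 638 CPM in L3-L5 and 1115, 2696, 3595 and 986 CPM in T10-L1 DRG, without overlap (log2 fold change -2.59 ± 0.56, unadjusted p = 0.00107 in edgeR, adjusted p = 0.00331 in DESeq2). Flrt3, Tnfrsf12a and Gadd45a were the other 3 in that direction, at log2 fold changes of -1.66, -2.04 and -1.56. Sox11, a factor of axon growth, went the other way with 7.39, 37.1, 34.3 and 1.48 CPM in L3-L5 and 2.60, 4.57, 3.37 and 2.40 CPM in T10-L1 DRG, where L3-L5 libraries 2 and 3 made the difference. Gap43, the growth cone protein, had a log2 fold change of 0.47 (unadjusted p = 0.448 in edgeR). Of 13 genes of the unfolded-protein and integrated stress response 4 were higher in T10-L1 DRG (median -0.54), among them Ddit3, which encodes the stress factor CHOP (34.9, 36.3, 29.9 and 49.8 against 61.1, 62.4, 95.8 and 48.9 CPM). The 4 became 0 without T10-L1 library 3 (median -0.39), 2 without L3-L5 library 2 or T10-L1 library 4, and 1 with the replicate block.

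NF-kB inflammatory genes had a negative log2 fold change in 21 of 21 (median -1.80), 5 were higher in T10-L1 DRG and 1 did not overlap. Il6, the cytokine interleukin 6, was that one, with 0.681, 0, 2.88 and 0.633 CPM in L3-L5 and 5.66, 9.23, 24.3 and 13.2 CPM in T10-L1 DRG (log2 fold change -3.64 ± 1.26, unadjusted p = 0.0167 in edgeR). Cxcl10, a chemokine that interferon also induces, had 94.9, 34.0, 16.9 and 42.4 CPM against 221, 343, 548 and 94.2 CPM and overlapped by 1 library of each level. Nfkbia, the inhibitor that NF-kB itself induces, had 414, 95.8, 55.1 and 317 CPM in L3-L5 and 410.4, 382, 650.4 and 758 CPM in T10-L1 DRG. Il1b, Ccl2, Ccl3, Ccl4, Cxcl1 and Cxcl2 were highest within each level in T10-L1 library 4 and L3-L5 library 1, the libraries highest in macrophage genes, as in Ccl4 with 219.8, 1.59, 6.26 and 28.9 CPM against 106, 34.3, 101 and 493 CPM. The part of macrophage RNA in this list was not tested. The count of genes higher in T10-L1 DRG was 16 without L3-L5 library 1, 1 without T10-L1 library 3, 2 without L3-L5 library 2 or T10-L1 library 4, 3 without L3-L5 library 3 and 3 at equal identity score. Of 22 interferon response genes 4 were higher in T10-L1 DRG (median -0.35), led by the GTPase gene Irgm1 (69.3, 13.9, 7.91 and 66.1 against 199.9, 227, 774 and 129 CPM).

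For the immediate-early, heat-shock and NF-kB lists, the 250 bases before the starts of transcription, as RefSeq gives them on GRCm38.p6, were searched on both strands for 4 motifs. The table matched 17 of 22 immediate-early, 10 of 13 heat-shock and 15 of 21 NF-kB genes. The NF-kB site was in 6 of 15 NF-kB genes (40%) and in 1.65% of the 27025 genes of the table. The AP-1 site TGANTCA was in 5 of the 15 (33.3%) and in 7.82% of all. The heat-shock element was in 2 of 10 heat-shock genes (20%), Hspd1 and Hspe1, and in 0.514% of all. Whether these 2 promoters share the same stretch was not examined. Hspa1a, Hspa1b and Dnajb1 were not among the genes with a match. The cyclic AMP response element TGACGTNA was in 2 of 17 immediate-early genes (11.8%) and in 2.92% of all, and the AP-1 site was in 0 of 17. A match is a description of these letters and not a bound site, and these shares describe the lists and not the libraries. The following 4 promoters are shown as examples of the motifs of each list, each the full 250 bases, 5′ to 3′ on the strand of the gene, with the named motif, and no other, in capitals. Btg2, an antiproliferative immediate-early gene (chr1:134079156-134079405, minus strand), holds the cyclic AMP response element, Hspd1, the mitochondrial chaperonin HSP60 (chr1:55087933-55088182, minus strand), the heat-shock element on both strands as 1 overlapping stretch, since the 2 matches share bases, and Il6 (chr5:30012864-30013113, plus strand) and Nfkbia (chr12:55492648-55492897, minus strand) the NF-kB site.
Btg2: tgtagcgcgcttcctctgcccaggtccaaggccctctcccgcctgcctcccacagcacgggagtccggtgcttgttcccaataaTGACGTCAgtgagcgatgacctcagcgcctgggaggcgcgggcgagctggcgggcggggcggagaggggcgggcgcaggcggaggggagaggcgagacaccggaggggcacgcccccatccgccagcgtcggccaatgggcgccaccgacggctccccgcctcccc
Hspd1: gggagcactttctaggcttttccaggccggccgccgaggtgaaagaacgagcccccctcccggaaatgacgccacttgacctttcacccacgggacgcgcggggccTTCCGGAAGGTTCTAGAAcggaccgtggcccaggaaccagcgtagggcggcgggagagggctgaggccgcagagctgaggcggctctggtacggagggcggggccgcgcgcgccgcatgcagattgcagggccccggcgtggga
Il6: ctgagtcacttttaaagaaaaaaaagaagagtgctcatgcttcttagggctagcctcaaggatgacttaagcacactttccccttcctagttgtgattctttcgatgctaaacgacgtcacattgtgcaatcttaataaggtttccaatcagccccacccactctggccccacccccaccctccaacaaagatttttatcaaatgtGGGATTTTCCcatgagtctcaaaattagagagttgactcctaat
Nfkbia: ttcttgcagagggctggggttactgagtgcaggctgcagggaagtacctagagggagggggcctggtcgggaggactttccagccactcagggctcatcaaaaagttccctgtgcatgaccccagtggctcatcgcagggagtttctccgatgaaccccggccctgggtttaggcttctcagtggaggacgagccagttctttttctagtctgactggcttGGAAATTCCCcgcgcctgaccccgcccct

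The log2 fold changes of these genes were -1.34 for Btg2 (496, 137, 152 and 723 CPM in L3-L5 and 669, 772, 1293 and 894 CPM in T10-L1 DRG), -1.04 for Hspd1 (60.1, 63.9, 85.9 and 56.2 against 63.4, 134, 279 and 58.1 CPM), and the values of Il6 and Nfkbia above. Btg2 and Nfkbia were higher in T10-L1 DRG with overlap, and Hspd1 did not reach the threshold (unadjusted p = 0.0639 in edgeR).

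**Figure D4:**
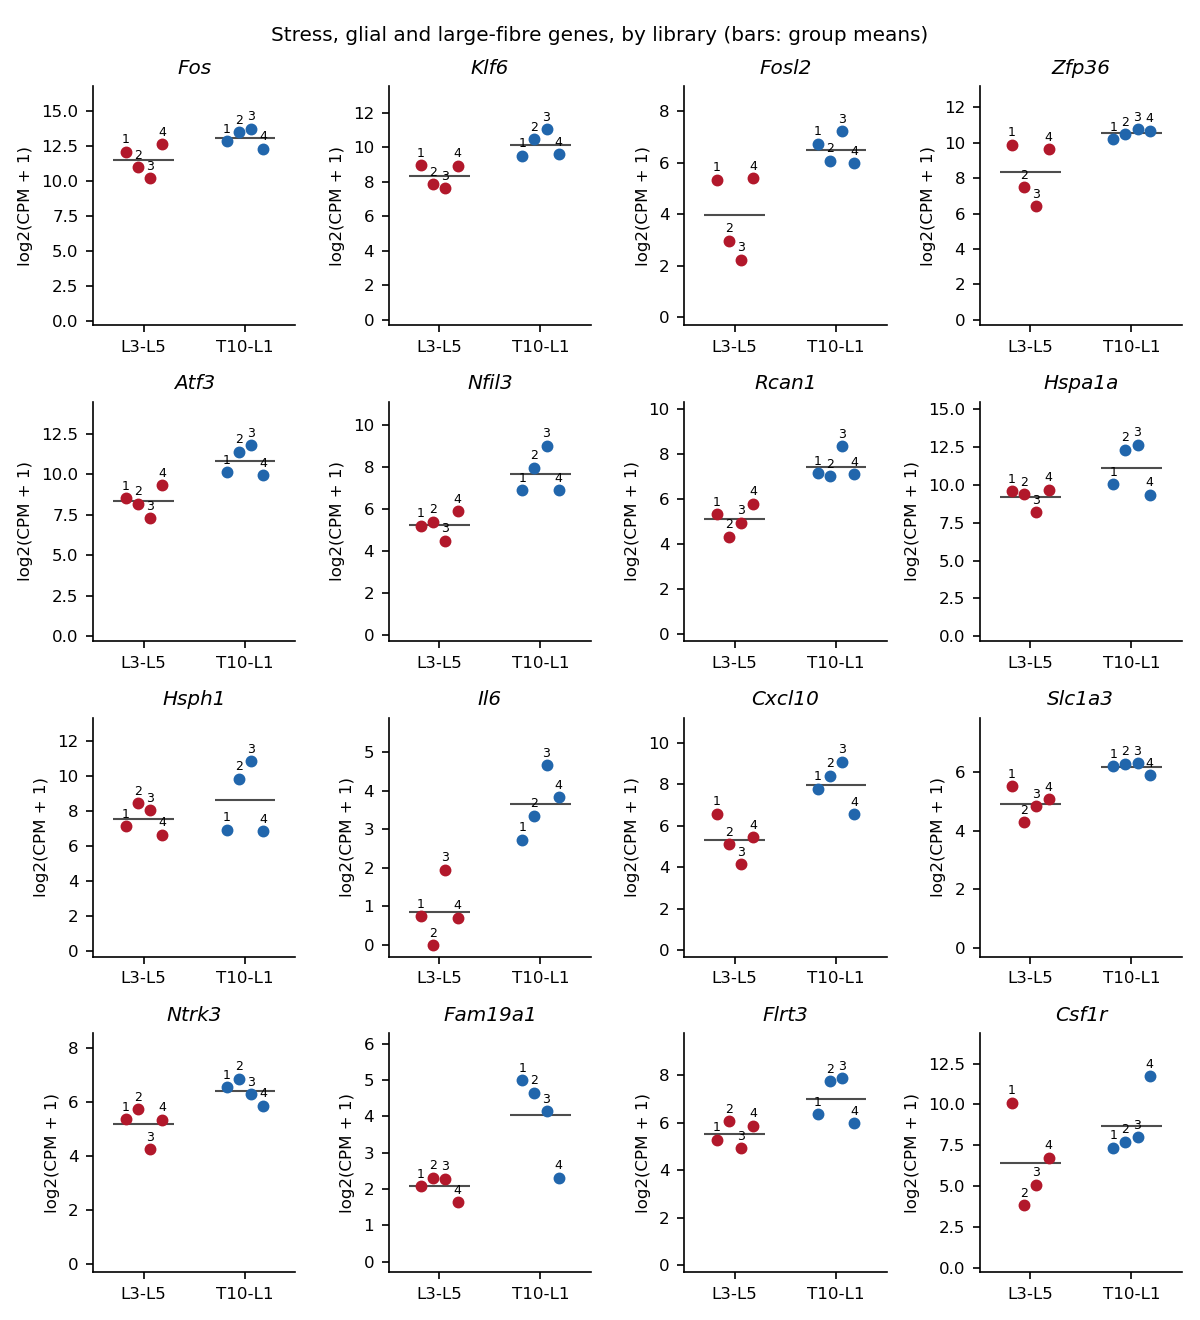
Each panel is a gene, each point 1 library with its number, and each bar the mean of 4 libraries on a log2(CPM + 1) axis. Klf6, Fosl2, Zfp36, Atf3, Nfil3, Rcan1, Il6, Slc1a3, Ntrk3 and Fam19a1 lie wholly higher in T10-L1, Hspa1a and Hsph1 are highest in T10-L1 libraries 2 and 3, and Csf1r is highest in L3-L5 library 1 and T10-L1 library 4.

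Satellite glia genes had 3 of 11 (27.3%) higher in T10-L1 DRG, namely Slc1a3, Gja1 and Cdh19, beside 2.72% of all genes (median -0.53). Without L3-L5 library 2 or T10-L1 library 1 or 3 the count was 1, and without L3-L5 library 4 it was 4. It was also 1 with the replicate block. Of 11 Schwann cell myelin genes 0 reached the threshold in edgeR or DESeq2 (median 0.09). Slc1a3, the glutamate transporter GLAST, had 44.5, 18.4, 27.6 and 32.5 CPM in L3-L5 and 72.6, 76.6, 77.5 and 58.4 CPM in T10-L1 DRG without overlap (log2 fold change -1.26 ± 0.32, unadjusted p = 0.00284 in edgeR, adjusted p = 0.0372 in DESeq2). Fabp7, a lipid-binding protein of the same cells, had 1270.1, 1252, 685 and 1009 CPM against 1522, 914, 647 and 563 CPM and a log2 fold change of 0.18. The mean of the list was 6.74 to 8.04 in L3-L5 and 7.56 to 8.52 in T10-L1 DRG in log2(CPM + 1), and its summed level from 13446 to 33361 and from 22253 to 32599.5 CPM, with 1 of its 12 counted genes at 0 in all libraries.

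Of single genes, the 10 with the lowest p in each direction among those without overlap included several outside the classes. Car8, a protein that inhibits the inositol trisphosphate receptor, had the lowest p of all, with 33.8, 94.6, 39.6 and 29.6 CPM in L3-L5 and 0.917, 5.04, 4.11 and 3.15 CPM in T10-L1 DRG (log2 fold change 3.87 ± 0.65, unadjusted p = 0.000173 in edgeR, adjusted p = 8.14e-06 in DESeq2). Its lowest L3-L5 library lay well above its highest T10-L1 library, and L3-L5 library 4 was close to libraries 1 and 3. Runx1t1, a transcriptional corepressor, had 72.9, 86.4, 98.1 and 57.2 CPM against 32.4, 25.5, 23.2 and 30.7 CPM. Chek1, a cell cycle checkpoint kinase, had 4.96, 14.2, 6.51 and 1.27 CPM in L3-L5 DRG and in total 1 read in T10-L1 DRG. Pnpla3, a lipase of lipid droplets, had 16, 42.7, 65.7 and 21.1 CPM against 2.45, 9.99, 3.12 and 0.975 CPM. The T and B lymphocyte list had 0 of 2 tested genes at the threshold in edgeR or DESeq2.

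In the T10-L1 direction, Rcan1, an inhibitor of calcineurin, had 39.4, 19.1, 29.8 and 54.5 CPM in L3-L5 and 141, 129, 325 and 136 CPM in T10-L1 DRG (log2 fold change -2.42 ± 0.44, unadjusted p = 0.00029 in edgeR, adjusted p = 0.000789 in DESeq2). Pde4b, which degrades cyclic AMP, had 75.3, 50.0, 41.4 and 152 CPM against 281, 534, 1006 and 278 CPM. Nfil3, a bZIP repressor, had 35.9, 41.1, 21.5 and 58.1 CPM in L3-L5 and 118, 249, 516 and 117 CPM in T10-L1 DRG. All 3 were highest in T10-L1 library 3, which also led in the mean of immediate-early genes. Mcl1, a survival protein, and Ifrd1, an interferon-related regulator, had log2 fold changes of -1.58 and -2.27, and Rel, an NF-kB subunit outside the list, of -2.24. Slc2a4, the insulin-responsive glucose transporter, had 1.07, 0, 0.0824 and 0.422 CPM against 11.2, 5.04, 14.1 and 10.7 CPM and an adjusted p of 0.00156 in DESeq2.

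**Figure D5:**
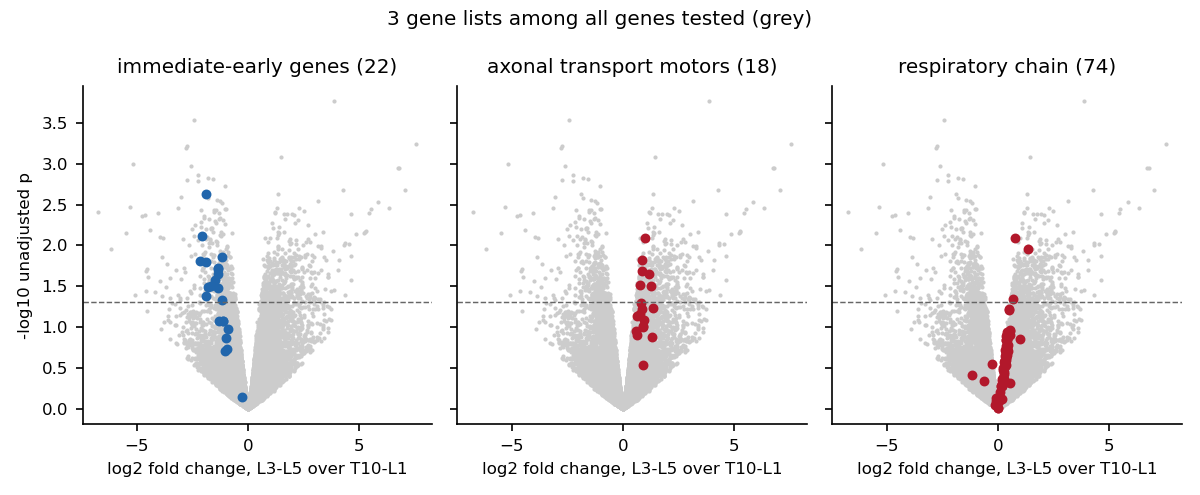
Each grey point is 1 of 13550 genes tested, with its log2 fold change on the horizontal axis, positive where L3-L5 was higher, and −log10 of edgeR's unadjusted p on the vertical axis, where the dashed line marks 0.05. The immediate-early genes (22, blue) lie left of 0, the axonal transport motors (18, red) right of it, and the respiratory chain (74, red) mostly right of it and below the line.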

How the data were processed

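RNA of sorted Pirt/TdTomato+ cells was made into SMART-seq2 libraries and sequenced as single reads of 50 bp. The authors deposited whole-number counts of reads per gene, made with TopHat2 on mm9 and HTSeq, and the submitters' processing notes also name bcl2fastq. The kit does not keep strand, so reads of genes that overlap on opposite strands cannot be told apart. Alignments that were not unique, 10624683 to 17618872 per library, were not counted on genes, which lowers the counts of genes with near-identical copies. From the deposited counts of 22609 genes, with the 5 summary rows of the counter left out, the 8 libraries were fitted on group with edgeR 4.0.16 in R 4.3.3 (TMM factors, filterByExpr, quasi-likelihood test, Benjamini-Hochberg adjustment). DESeq2 1.42.0 was an alternative, whose calls were not taken as the test, and the other alternatives were RLE factors, no filter, all 16 libraries, a replicate block, 2 covariates, a pseudocount of 0.1 and leaving out libraries. CPM was computed with the reads on genes as the total, and mean levels of lists are log2(CPM + 1). The code was tested on simulated data.

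The members and the 44 gene lists were chosen with earlier results of these data known, so no test was made over a list. The genes named by rule were, in each direction, the 10 with the lowest unadjusted p among those without overlap and with a mean CPM above 5, the 1 or (in lists with more than 15 tested genes) 2 lowest of each list, 13 anchor genes and the 5 lowest adjusted p of DESeq2. Other genes were chosen after their values were seen. The labels do not say whether replicate numbers pair the libraries. The correlations of same-numbered deviations were -0.11, 0.15, 0.10 and 0.13, which cannot show whether animals or days were shared. Of the counted genes, 21672 had a length in the mm9 annotation. Some items are not reported here.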

Additional observations from a re-analysis of the deposited data

Results flagged for a closer look

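Of 258 groups of 4 libraries examined for a library far from the other 3 by Dixon's criterion, 17 were flagged, and chance flags about 1 in 20 groups. The share of reads outside genes was 66.6% in L3-L5 library 4 against 32.0% to 35.5% in the other L3-L5 libraries, and 51.5% in T10-L1 library 1 against 29.6% to 32.8%.

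T10-L1 library 4 had a mean log2(CPM + 1) of 10.66 for macrophage genes against 6.29 to 6.85, of 8.22 for fibroblast genes against 6.34 to 6.61 and of 0.99 for nicotinic receptors against 1.61 to 1.69, and its log2(CPM + 1) of Csf1r, the receptor that macrophages need to survive, was 11.72 against 7.35 to 8.01. Hoxd10 was 0.74 in the same library, from 9 reads, and 0 in the other T10-L1 libraries.

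T10-L1 library 1 was low in non-peptidergic nociceptor genes, with a mean of 3.73 against 6.42 to 6.71, in Ret (4.54 against 7.12 to 7.60) and in Trpm4 (1.72 against 3.86 to 4.29), all in log2(CPM + 1). Ppapdc1a was 0.38 there and 0 in the other T10-L1 libraries.

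T10-L1 library 3 had 8.35 for Rcan1 against 7.02 to 7.15, 1.96 for Cacna1b against 3.64 to 3.90, and 0.11 for Chek1 against 0. T10-L1 library 2 had 0.25 for Gabrb1 against 0. In L3-L5 DRG, library 4 had 1.18 for Th against 6.73 to 7.74, and library 2 had a mean of 3.65 for axon injury genes against 3.01 to 3.10.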

How the results depend on the processing

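edgeR gave 0 genes with an adjusted p under 0.05 in every setting run, and DESeq2 gave 44 higher in L3-L5 and 34 higher in T10-L1 DRG. At an unadjusted p under 0.05 (454 and 369), the counts were 783 and 613 in DESeq2, 117 and 151 with all 16 libraries in one fit, 816 and 647 with the share of reads outside genes as a covariate, and 201 in the L3-L5 direction with the identity genes as a covariate. They ran from 184 without L3-L5 library 3 to 948 without L3-L5 library 4, and from 200 without T10-L1 library 3 to 693 without L3-L5 library 4. The cause was not tested. The replicate block gave 369 and 401, and medians of 0.72 for GABA-A, 0.60 for HCN, 3.23 for Hox 10 to 13, 0.91 for nicotinic, 3.59 for opioid and -2.19 for red blood cell genes.

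With the identity genes as a covariate the medians were 0.85 for C-fibre touch, 0.28 for GABA-A, 0.43 for HCN, 1.69 for Hox 10 to 13, 0.21 for TRP, 0.37 for calcium channel, -0.30 for acid-sensing, -0.87 for axon injury, -0.15 for glutamate, -0.31 for itch, -0.053 for neuropeptide, -0.41 for neurotrophin receptor, -0.35 for nicotinic, -0.62 for non-peptidergic, -0.17 for potassium channel, -0.60 for red blood cell, -0.58 for serotonin, -0.12 for synaptic vesicle and -0.24 for sodium channel genes. With all 16 libraries the itch median was 1.43. Without both libraries that stood apart in reads outside genes, the medians were 0.84 for Hox 1 to 5, 3.09 for Hox 10 to 13 and 0.40 for potassium channels. With a pseudocount of 0.1 the differences of mean log2 level were 1.43 for Hox 10 to 13, 2.59 for opioid and 0.64 for potassium channel genes.

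With 1 library left out the medians ran from 0.47 to 1.5 for GABA-A, 0.80 to 1.5 for HCN, 1.95 to 2.85 for Hox 10 to 13, -0.80 to -0.15 for P2X, -2.47 to -1.25 for lymphocyte, 0.56 to 0.95 for TRP, 0.14 to 0.99 for glutamate, 0.31 to 1.36 for itch, -0.78 to -0.15 for large-fibre, 0.85 to 1.57 for nicotinic, 0.18 to 0.53 for potassium channel, -0.67 to 0.31 for red blood cell, 0.35 to 1.95 for serotonin and 0.57 to 1.53 for calcium channel genes. Of 44 lists, 25 kept the sign of their median in all 16 settings and 19 did not. Depth of 4735624 reads in L3-L5 library 4 limits what is detectable there.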

Other observations

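Of 15 cholesterol synthesis genes 0 had an unadjusted p under 0.05 in edgeR or DESeq2 (median 0.28), and Fdps, which makes farnesyl diphosphate, had 115, 162, 159 and 97.6 CPM in L3-L5 and 104, 85.9, 106 and 65.0 CPM in T10-L1 DRG. Of 7 nuclear-retained RNAs only Snhg11, a host transcript of small nucleolar RNAs, was higher in L3-L5 DRG, with 545, 1670.0, 2223 and 89.5 CPM in L3-L5 and 189.5, 260.2, 165 and 135 CPM in T10-L1 DRG. L3-L5 library 4 was the lowest of its level. Among 3 tested red blood cell genes 0 reached the threshold in edgeR or DESeq2.

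Egr2, the factor of myelinating Schwann cells, had 497, 102, 102 and 491 CPM in L3-L5 and 656, 491, 964 and 356 CPM in T10-L1 DRG. Col3a1, a collagen of fibroblasts, had 948, 99.7, 33.9 and 830.1 CPM in L3-L5 and 645, 864, 783 and 2336 CPM in T10-L1 DRG, and Pdgfrb, a receptor of pericytes, had 38.9, 19.4, 48.9 and 72.9 CPM in L3-L5 and 78.1, 30.0, 70.4 and 91.5 CPM in T10-L1 DRG. In Col3a1, L3-L5 libraries 2 and 3 were the lowest of all 8. Irf1, an interferon-induced factor, had 155, 65.5, 68.8 and 324 CPM in L3-L5 and 454, 447, 1131 and 228 CPM in T10-L1 DRG (log2 fold change -1.95, unadjusted p = 0.0119 in edgeR). Ikzf4, a zinc finger factor, had 2.14, 0.298, 0.0824 and 1.48 CPM in L3-L5 and 20.2, 43.8, 65.9 and 6.00 CPM in T10-L1 DRG, without overlap. Tmem30b, a subunit of phospholipid flippases, had 2.24, 30.1, 20.5 and 0.422 CPM in L3-L5 and 0, 0.0952, 0.0822 and 0 CPM in T10-L1 DRG and an adjusted p of 0.000704 in DESeq2.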
